A study of Mus musculus with 48 samples.

Results

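Imprinted genes are expressed mainly from 1 parental copy, and 32 of them outside the H19 and Igf2 domain were followed here through all peak lists of a series on CTCF mutants. Every peak within 10 kb of the mm10 span of a member gene was taken, which gave 1893 of 1444924 peaks over 22 lists. The members lie in 16 imprinted domains with 3.06 Mb of window in all. The domains are Kcnq1ot1 (Kcnq1ot1, Cdkn1c, Phlda2, Kcnq1), Peg3 (Peg3, Usp29, Zim1), Snrpn (Snrpn, Ndn, Magel2, Ube3a), Peg10 (Peg10, Sgce), Dlk1-Meg3 (Dlk1, Meg3, Rian, Mirg), Gnas (Gnas, Nespas), Peg13 (Peg13, Trappc9), Igf2r (Igf2r, Airn) and Zrsr1 (Zrsr1, Commd1). Mest, Grb10, Plagl1, Nnat, Impact, Rasgrf1 and Inpp5f stand alone.

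The cells were E14Tg2a mouse embryonic stem cells of strain 129/Ola, in which endogenous CTCF carries an auxin degron and a Ctcf transgene with a FLAG tag is switched on by doxycycline. The transgene was 1 of 9 mutants, each a change of 1 residue, or wild type (WT). The mutants were R339Q, R342C and S354F, then K365T, R377C and R377H, and last Q418R, R448Q and H455R. For the FLAG and SMC3 lists, mutant and WT cells alike had received 500 µM indole-3-acetic acid and 1 µg/ml doxycycline for 2 days, so that the WT cells carried the degron and a transgene too. The CTCF antibody was used in WT cells that had received both agents (treated) and in WT cells that had received neither (untreated). Antibodies to FLAG (the transgene protein), SMC3 (a cohesin subunit) and CTCF were used in ChIPmentation, in which a transposase tags the chromatin while it is bound to the antibody. Each list pools 2 replicates by its title, although the peak names in 9 of the 10 FLAG lists carry replicate codes other than rep1 and rep2. A genotype thus gives 1 list per antibody, no spread between replicates can be given, and no difference between genotypes carries a p-value. The labels do not say how many clones stand behind a genotype.

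CTCF is a zinc-finger protein that binds DNA and halts cohesin as it extrudes loops. At imprinted domains the 2 parental copies differ in DNA methylation at a control region, and at some of these regions CTCF is known to bind the unmethylated copy only. Domains typically hold protein-coding genes that dose growth or brain function together with a long non-coding RNA that is read from the opposite parental copy. The peak lists do not separate the parental copies, so a peak may come from either or from both.

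Gene spans overlap within several domains, so that members share peaks. Kcnq1ot1 lies inside Kcnq1, Peg13 inside Trappc9 and Zrsr1 inside Commd1, while Nespas overlaps Gnas and Airn overlaps Igf2r. Numbers of peaks per domain therefore count each peak once, whereas numbers per gene do not.

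Promoters were matched in RefSeq (GRCm38.p6, 250 bases before to 50 bases after a start) for 24 of the 32 members, with 35 promoters in all; Cdkn1c, Kcnq1, Peg10, Sgce, Nespas, Peg13, Trappc9 and Impact had none in the table. None of the 35 promoters overlapped a WT FLAG peak, where 731 of all 32851 promoters in the table did. A FLAG peak of a mutant overlapped 1 of the 35. WT SMC3 peaks lay on 3 of them (Zim1, Plagl1 and a Commd1 promoter). With the CTCF antibody, treated cells had peaks on 3 promoters, against 5 in untreated cells. The shares of all promoters under mutant FLAG, SMC3 or CTCF antibody peaks were not computed, so these counts are description only. The 4 promoters printed here were chosen because 3 of them carry every treated CTCF antibody peak on a member promoter and the last holds the CTCF motif without a peak. Capitals mark the core of the CTCF motif, searched on both strands as CC, any 3 bases, AG, any 2 bases and GGC.
Gnas promoter 2 (mm10 chr2:174284070-174284369, + strand): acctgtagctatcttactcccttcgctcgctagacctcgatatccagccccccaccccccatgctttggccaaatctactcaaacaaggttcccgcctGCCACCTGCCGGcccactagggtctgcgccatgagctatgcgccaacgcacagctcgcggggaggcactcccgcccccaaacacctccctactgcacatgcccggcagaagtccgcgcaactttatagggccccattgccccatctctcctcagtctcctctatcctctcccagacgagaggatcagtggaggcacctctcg
Commd1 promoter 1 (mm10 chr11:22982235-22982534, - strand): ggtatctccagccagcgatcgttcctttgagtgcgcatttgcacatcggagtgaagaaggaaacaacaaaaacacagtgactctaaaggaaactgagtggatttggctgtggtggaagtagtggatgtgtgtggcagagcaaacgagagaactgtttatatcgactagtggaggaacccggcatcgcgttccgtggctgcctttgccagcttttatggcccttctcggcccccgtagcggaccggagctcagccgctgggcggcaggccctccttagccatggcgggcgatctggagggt
Meg3 promoter 1 (mm10 chr12:109540746-109541045, + strand): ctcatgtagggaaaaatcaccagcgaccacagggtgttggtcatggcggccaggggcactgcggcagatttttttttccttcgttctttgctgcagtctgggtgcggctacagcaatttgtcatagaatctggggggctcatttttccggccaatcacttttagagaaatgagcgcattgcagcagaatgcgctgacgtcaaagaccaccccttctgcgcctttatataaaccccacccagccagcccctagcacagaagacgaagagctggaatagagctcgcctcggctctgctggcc
Rian promoter 1 (mm10 chr12:109603695-109603994, + strand): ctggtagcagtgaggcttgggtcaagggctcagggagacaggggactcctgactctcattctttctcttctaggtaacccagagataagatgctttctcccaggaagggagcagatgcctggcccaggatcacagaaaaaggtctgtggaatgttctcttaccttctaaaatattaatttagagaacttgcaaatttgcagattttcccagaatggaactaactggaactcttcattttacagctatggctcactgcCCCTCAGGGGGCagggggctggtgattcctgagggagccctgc

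The Gnas promoter lay under a CTCF antibody peak in treated and in untreated cells, held the motif from base 99 of the printed run on the opposite strand, and had no FLAG peak in any list. SMC3 peaks covered it in 3 mutants (R339Q, R342C and S354F) and not in WT. The Commd1 promoter had a FLAG peak in Q418R alone, SMC3 peaks in 8 mutants (all but Q418R) and none in WT, and CTCF antibody peaks with and without treatment; the letters of the motif are not in this window. The Meg3 promoter lay under a treated CTCF antibody peak and under no other peak of the 22 lists. The Rian promoter held the motif from base 258 and lay under no peak of the 22 lists. Of the 35 member promoters, these 2, of Gnas and Rian, held the motif, whereas 8.61% of all 32851 promoters in the table held it, and 46.8% of the 731 promoters that overlapped a WT FLAG peak.

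FLAG peaks lay near 4 to 21 of the 32 members in the mutants, against 14 in WT, and CTCF antibody peaks near 30. Each count is followed by the share of all 34614 gene spans with such a peak within 10 kb. The median span is 39.6 kb for the members and 12.8 kb for all genes, so that a member has more room for a peak and the shares are not matched for length. FLAG peaks lay near 15 members in R339Q (34.4% of all genes), 12 in R342C (32.5%), 17 in S354F (44.0%), 14 in K365T (28.5%) and 18 in R377C (45.3%). They lay near 17 in R377H (31.8%), 21 in Q418R (48.6%), 13 in R448Q (34.9%) and 4 in H455R (8.65%), against 14 in WT (32.4%). SMC3 peaks lay near 16 members in Q418R (46.1%) and between 22 and 29 in the other mutants (59.8% to 73.8%), against 23 in WT (61.5%). CTCF antibody peaks lay near 30 members in treated cells (73.9%) and 30 in untreated cells (77.9%), the exceptions being Kcnq1ot1 and Ndn in both. No FLAG list had a peak near Kcnq1ot1, Ube3a, Ndn, Dlk1, Peg13 or Nnat. A further 12 members had FLAG in at least 1 mutant and not in WT. Dlk1, which encodes a membrane protein related to Notch ligands, was the 1 member without an SMC3 peak in any list. SMC3 was near 13 members in all 10 lists. For these counts over several lists the shares of all genes were not computed, so they cannot be called particular to the members.

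Counted as peaks, the FLAG lists held 24 peaks near members in R339Q, 24 in R342C, 37 in S354F, 23 in K365T, 42 in R377C, 25 in R377H, 40 in Q418R, 18 in R448Q and 9 in H455R, against 24 in WT. These numbers follow lists of very unequal length, from 3855 peaks in H455R to 30462 in R377C, against 15392 in WT. Per Mb of window, the imprinted genes had 0.62 times the FLAG density of other genes in R448Q, 1.63 times in H455R, between 0.78 and 1.15 times in the other mutants, and 1.01 times in WT. The H455R ratio rests on 9 peaks, 5 of them in the Peg13 domain, and the R448Q ratio on 18. No interval was computed for these ratios, so the extremes need not describe imprinted genes in general. SMC3 densities near imprinted genes were 0.64 to 0.87 times those near other genes in the mutants, against 0.79 times in WT. The CTCF antibody gave 0.74 times in treated cells, against 0.79 times in untreated cells. With all windows pooled, SMC3 and CTCF antibody peaks were thus less dense near these genes than near others in every list. WT FLAG peaks were about as dense. The Snrpn domain makes up 636 kb of the 3.06 Mb of window and had no WT SMC3 peak and 0 to 5 in the mutants. It therefore lowers the pooled SMC3 densities, and densities without it were not computed, so the pooled values need not describe each domain.

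By domain, WT FLAG peaks lay in 10 of 16. The Mest, Snrpn, Gnas, Impact and Rasgrf1 domains had FLAG in mutants only, and Nnat had none in any list. A FLAG peak was present in every mutant in 4 domains, Kcnq1ot1, Dlk1-Meg3, Peg13 and Inpp5f. H455R had FLAG in these 4 domains only, whereas the other mutants had it in 8 (R342C) to 14 (Q418R) and WT in 10. Domain windows run from 22.4 kb (Nnat) to 636 kb (Snrpn), and FLAG lists from 3855 peaks (H455R) to 30462 (R377C). Shares of windows of like size near other genes were not computed. These domain counts are therefore description only and cannot be called particular to imprinted domains.

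**Figure D1:**
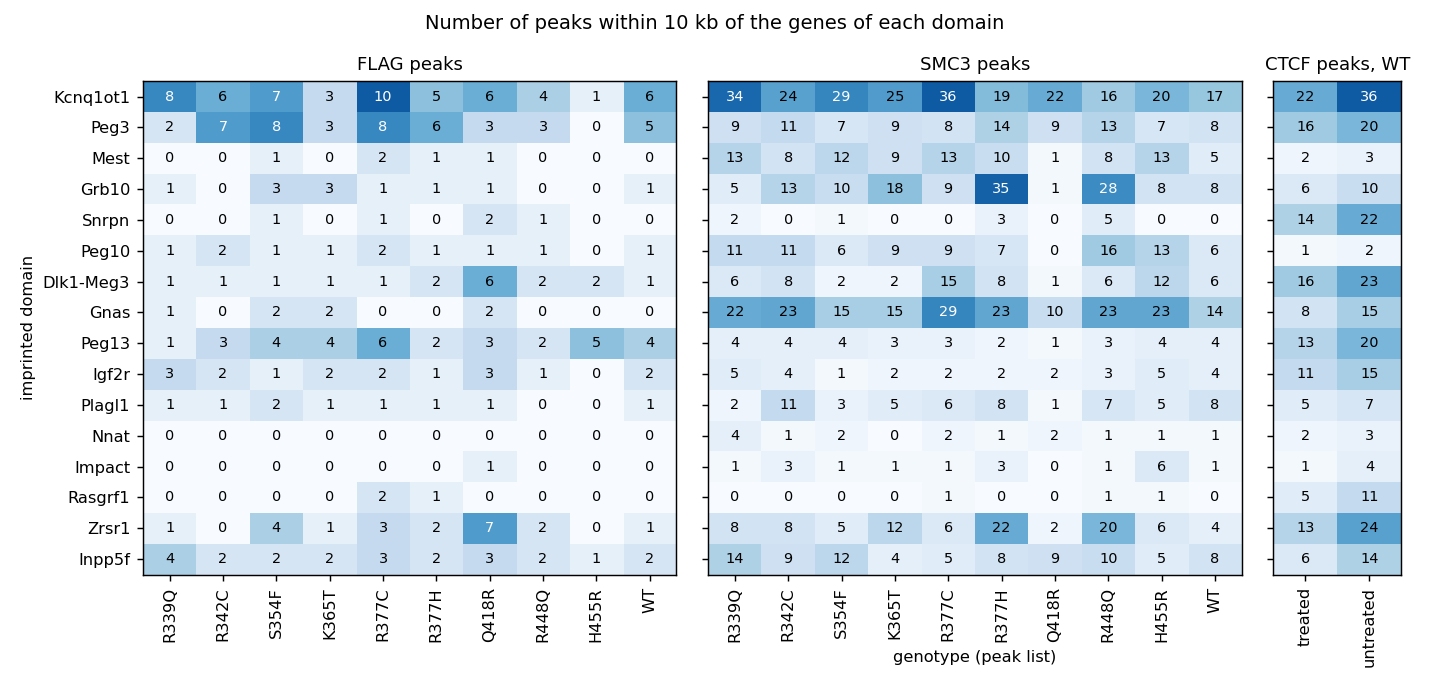
Number of FLAG, SMC3 and CTCF antibody peaks within 10 kb of the genes of each imprinted domain (rows) in each peak list (columns: 9 mutants then WT, and treated then untreated WT cells for the CTCF antibody); darker blue means more peaks. The Kcnq1ot1 domain had most SMC3 peaks in R377C (36), and the Grb10 domain in R377H (35).

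The 24 WT FLAG peaks near members are the sites at which each mutant was compared with WT. Each site is named by its gene and numbered by position, and its strength is given as a percentile of the authors' peak value within its own list, where 100 is the strongest peak. A percentile also depends on how many weak peaks a list holds, so that percentiles of different lists are set side by side as a description and show no change. The authors' value in the WT FLAG list ran from 1.84 (Grb10) to 7.70 (Usp29 site 3) at these sites. Of the sites, 16 lay inside the span of a member and 8 outside it. A treated CTCF antibody peak covered 19 of them, where the share of all 15392 WT FLAG peaks was 91.1%. These 19 sites lay under 15 distinct treated peaks, because some peaks spanned more than 1 site. A WT SMC3 peak lay on 18, where the share of all WT FLAG peaks was 81.2%. In neither CTCF antibody list were 4 sites (Zim1 site 1, Trappc9 sites 1 and 2 and Airn site 2), where 8.76% of all WT FLAG peaks were in neither.

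**Figure D2:**
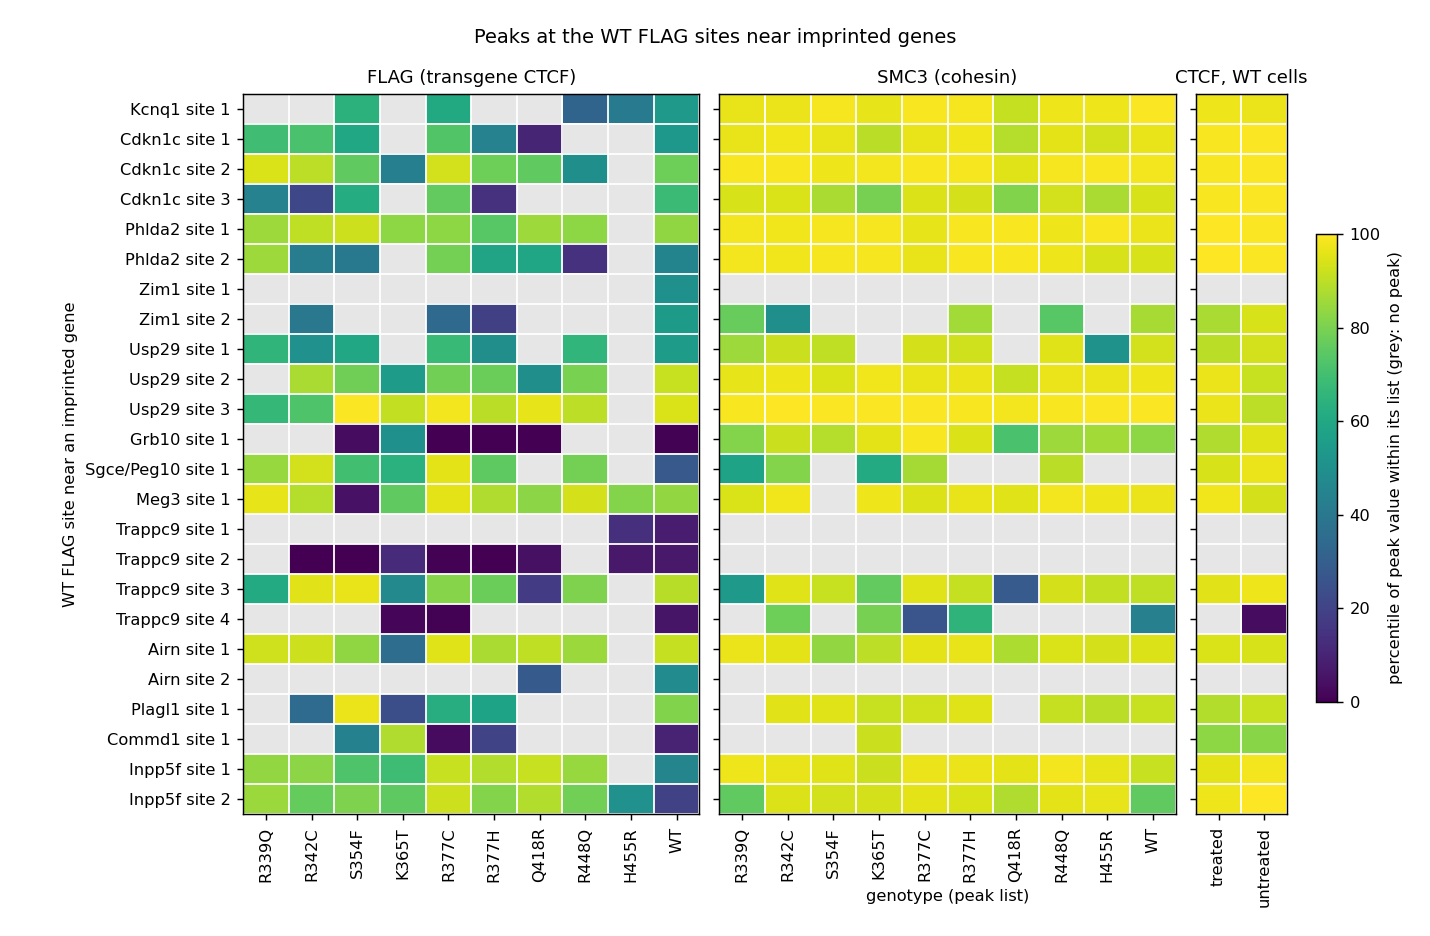
Percentile of the peak value within its list at each of the 24 WT FLAG sites near imprinted genes (rows) for FLAG and SMC3 in 9 mutants and WT and for the CTCF antibody in treated and untreated WT cells (columns); grey means that the list had no peak there. FLAG is grey in H455R at 19 sites, while SMC3 is grey at Zim1 site 1, Trappc9 sites 1 and 2 and Airn site 2 in all 10 lists.

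The Kcnq1ot1 domain on chromosome 7 held 6 of the 24 sites. Kcnq1 encodes a potassium channel, Cdkn1c an inhibitor of cyclin-dependent kinases that limits growth, Phlda2 a protein that restrains growth of the placenta, and Kcnq1ot1 the paternal RNA that silences its neighbours. Cdkn1c spans 143458339 to 143461059 and Phlda2 143501545 to 143503145 (mm10). The 3 Cdkn1c sites lay 2.79, 5.26 and 8.9 kb outside the gene, and the 2 Phlda2 sites lay 2.75 and 3.59 kb outside theirs.

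Cdkn1c site 2 (chr7:143466324-143466660) was the strongest of its 3 in WT. Its FLAG percentile was 94.4 in R339Q, 90.1 in R342C, 75.5 in S354F, 43.3 in K365T, 93.3 in R377C, 78.0 in R377H, 75.4 in Q418R and 49.8 in R448Q, with no peak in H455R, against 78.0 in WT. K365T and R448Q were the lowest of the mutants that had a peak. Cdkn1c site 1 (chr7:143463850-143464463) had FLAG in 6 mutants, at percentiles between 10.3 (Q418R) and 72.9 (R377C), against 53.2 in WT. Cdkn1c site 3 (chr7:143469959-143470308) had FLAG in 5 mutants, between 14.4 (R377H) and 75.8 (R377C), against 68.3 in WT. K365T, R448Q and H455R had no FLAG peak at site 1, and these mutants and Q418R had none at site 3.

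Phlda2 site 1 (chr7:143505901-143506114) had FLAG in 8 mutants at percentiles between 73.9 (R377H) and 92.4 (S354F), with no peak in H455R, against 83.5 in WT. Phlda2 site 2 (chr7:143506736-143507046) had FLAG in 7 mutants, between 14.1 (R448Q) and 85.4 (R339Q), with none in K365T or H455R, against 45.04 in WT. The gap between these sites is 0.621 kb, and in R339Q 1 FLAG peak of 1351 bp spans both, so the R339Q value is the same peak counted at each. Likewise 1 SMC3 peak spans both sites in R339Q, R342C, S354F, K365T, R377H, Q418R and R448Q. Counts of sites with SMC3 include that peak at each site. At the 5 sites around Cdkn1c and Phlda2, SMC3 peaks were present in all 9 mutants and WT. Their percentiles were between 79.6 and 99.2 in the mutants, against 93.9 to 98.4 in WT.

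CTCF antibody peaks around Cdkn1c were broad. A peak of 9558 bp in treated cells, against one of 9833 bp in untreated cells, spanned all 3 Cdkn1c sites, at percentile 98.9 in treated and 99.6 in untreated cells. Presence of the CTCF antibody at each of these sites is therefore 1 observation per list, not 3. Kcnq1 site 1 (chr7:143153775-143154145), inside the gene, differed from the other 5. It had FLAG in S354F at percentile 64.3, R377C at 60.8, R448Q at 32.1 and H455R at 40.9, with no peak in the other 5 mutants, against 54.1 in WT. SMC3 at this site was between percentile 91.3 (Q418R) and 98.8 (S354F and R377C) in all 9 mutants, against 99.3 in WT, the strongest WT SMC3 peak of the domain.

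**Figure D3:**
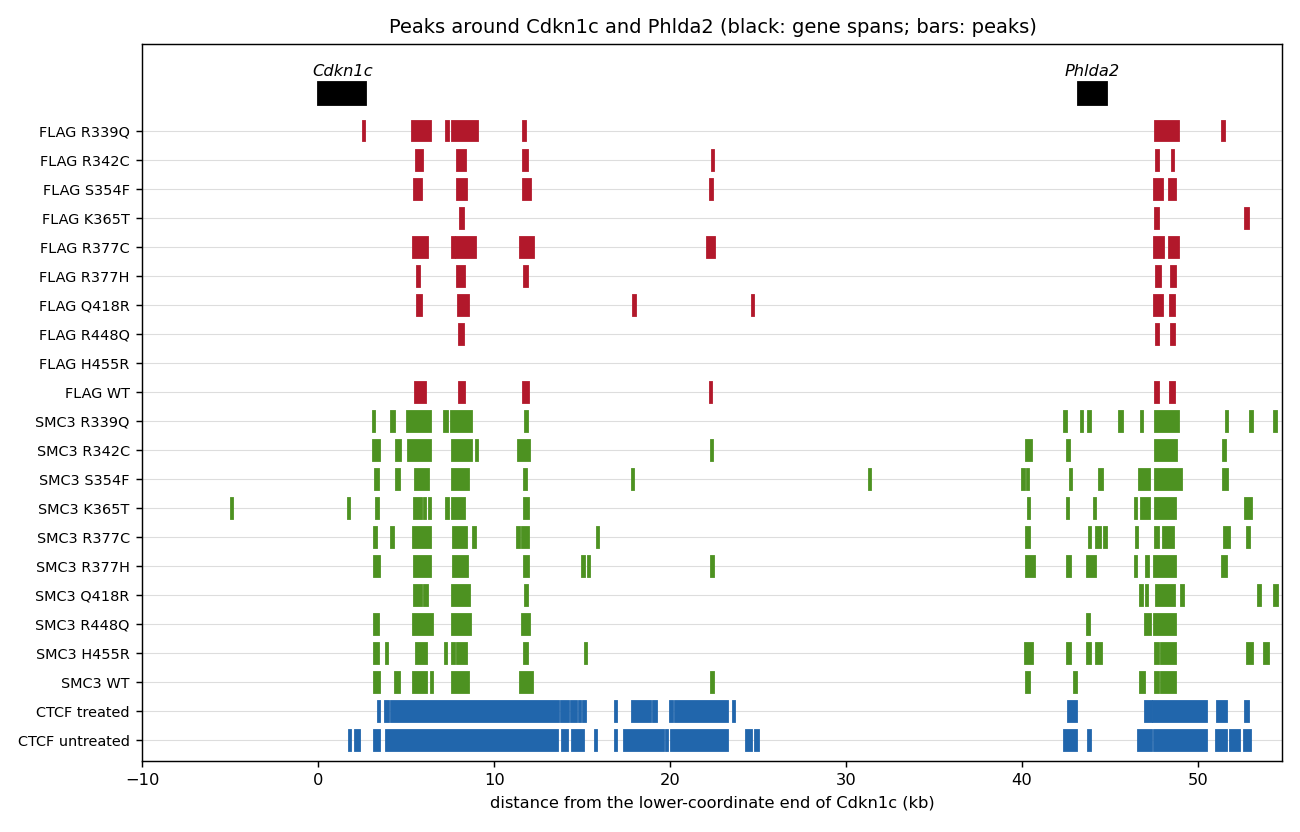
Peaks around Cdkn1c and Phlda2 in each list (rows: FLAG in red, SMC3 in green, the CTCF antibody in blue; mutants above WT, treated above untreated cells) against the distance in kb from the lower-coordinate end of Cdkn1c; black bars are the gene spans. The FLAG row of H455R is empty, while its SMC3 row, like that of WT, has peaks at all 5 WT FLAG sites within 10 kb of either gene. A further WT FLAG peak at 22.3 kb, outside these windows, has SMC3 in WT and not in H455R.

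Across the whole Kcnq1ot1 domain, SMC3 peaks numbered 16 to 36 in the mutants (median 24), against 17 in WT. Of the 17 WT SMC3 peaks, 6 had an SMC3 peak in every mutant, where 17.1% of all 71962 WT SMC3 peaks did. This was the highest count of any domain. In the others it was between 0 and 3, such as 3 of 8 in Inpp5f and 0 of 5 in Mest. All 6 WT FLAG sites of the domain had SMC3 in WT and in every mutant. Over all WT FLAG peaks with WT SMC3, the share with SMC3 in every mutant was 56.1%, well above 17.1%. The CTCF antibody gave 22 peaks in treated cells, against 36 in untreated cells, and 47.2% of the untreated peaks overlapped a treated one.

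The Peg3 domain on chromosome 7 had 5 sites. Peg3 and Zim1 encode zinc-finger proteins and Usp29 a protein of the ubiquitin-specific peptidase family. Usp29 site 3 (chr7:6940742-6941181) had FLAG at percentile 66.5 in R339Q, 72.5 in R342C, 99.4 in S354F, 90.8 in K365T, 98.4 in R377C, 89.8 in R377H, 96.2 in Q418R and 90.04 in R448Q, with none in H455R, against 94.2 in WT. Its SMC3 peak was at percentile 98.4 (Q418R) to 99.7 (R342C) in the mutants, H455R included at 99.3, against 99.5 in WT. Usp29 site 2 (chr7:6936980-6937502) lies 3.239 kb away and had FLAG in 7 mutants, at percentiles from 49.6 (Q418R) to 87.3 (R342C), with none in R339Q or H455R, against 91.5 in WT. SMC3 was present at site 2 in every mutant.

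Usp29 site 1 (chr7:6918182-6918636) had FLAG in 6 mutants, with none in K365T, Q418R or H455R, and at percentile 55.0 in WT. SMC3 was missing there in K365T and Q418R, and in H455R it was at percentile 51.0, against 93.2 in WT. Zim1 site 2 (chr7:6688843-6688991) had FLAG in R342C, R377C and R377H only, at percentiles of 40.2, 34.1 and 19.03, against 54.6 in WT. SMC3 was present at it in R339Q, R342C, R377H and R448Q and in WT, and not in the other 5 mutants. Zim1 site 1 (chr7:6674375-6674470), at percentile 50.0 in WT, had no FLAG in any mutant and no SMC3 or CTCF antibody peak in any list, and was the only site of the 24 with FLAG in no mutant, where the share over all WT FLAG peaks was 4.79%.

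Meg3 site 1 and Inpp5f site 2 had FLAG in all 9 mutants, which is 2 of 24 sites where the share over all WT FLAG peaks was 5.04%. Meg3 is the maternally expressed long non-coding RNA at the head of the Meg3, Rian and Mirg cluster, and the site (chr12:109542915-109543204) lies inside it. FLAG at Meg3 was at percentile 96.3 in R339Q, 89.1 in R342C, 4.80 in S354F, 75.7 in K365T, 96.0 in R377C, 87.9 in R377H, 82.5 in Q418R, 93.5 in R448Q and 81.6 in H455R, against 83.9 in WT. S354F stood apart from the other mutants with a weak peak of 165 bp, and it was also the mutant without SMC3 at the site. SMC3 in the other 8 mutants was at percentile 94.4 to 98.3, against 97.1 in WT. Of the 5 sites with FLAG in H455R, Meg3 site 1 had the highest percentile in that list.

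Inpp5f encodes an inositol phosphatase and hosts an imprinted transcript. Inpp5f site 2 (chr7:128705750-128705972), 9.31 kb outside the span, had FLAG at percentile 84.9 in R339Q, 76.4 in R342C, 80.8 in S354F, 75.3 in K365T, 92.6 in R377C, 81.3 in R377H, 88.6 in Q418R, 78.7 in R448Q and 50.5 in H455R, against 19.6 in WT. Inpp5f site 1 (chr7:128690262-128690475), inside the gene, had FLAG at percentiles between 68.8 (K365T) and 91.7 (R377C) in 8 mutants, with no peak in H455R, against 45.5 in WT. SMC3 was present at both sites in every list. It was at percentile 75.8 to 96.2 at site 2 and 91.9 to 98.2 at site 1 in the mutants, against 75.6 at site 2 and 91.6 at site 1 in WT. The untreated CTCF antibody peak at site 2, at percentile 99.6, was the strongest of the domain.

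The Sgce/Peg10 site (chr6:4747103-4747200) lies at the facing ends of Sgce, which encodes epsilon-sarcoglycan, and Peg10, a gene derived from a retrotransposon. FLAG was at percentile 84.5 in R339Q, 93.1 in R342C, 69.6 in S354F, 63.8 in K365T, 96.0 in R377C, 75.1 in R377H and 79.2 in R448Q, with none in Q418R or H455R, against 27.9 in WT. WT had no SMC3 peak on this site, which is 98 bp wide, whereas R339Q, R342C, K365T, R377C and R448Q had one at percentiles between 58.1 and 89.8. Over the whole untreated CTCF antibody peak of 1421 bp, however, WT had an SMC3 peak at percentile 13.3. All mutants but Q418R had SMC3 there, at percentiles between 38.5 and 92.3. The CTCF antibody peak was at percentile 94.1 in treated cells, against 97.3 in untreated cells.

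At Airn, the non-coding RNA that runs antisense to Igf2r and silences it, site 1 (chr17:12810431-12810725) had FLAG in 8 mutants, at percentile 35.7 in K365T and between 83.2 and 94.98 in the other 7, with none in H455R, against 91.2 in WT. SMC3 was present in all 9 mutants at percentile 83.9 to 97.0, against 94.9 in WT. Airn site 2 (chr17:12847715-12847840) was in Q418R alone of the mutants, at percentile 28.3, against 48.4 in WT, with neither SMC3 nor the CTCF antibody in any list. Igf2r, the receptor that clears IGF2, had no WT FLAG peak within its own window and 1 in Q418R.

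The Peg13 domain on chromosome 15 had 4 sites, all inside Trappc9, which encodes a subunit of a vesicle-tethering complex, and none near Peg13, the non-coding RNA inside it. Trappc9 site 3 (chr15:73022922-73023320) had FLAG in 8 mutants, from percentile 17.9 in Q418R to 96.9 in S354F, with none in H455R, against 89.3 in WT. SMC3 was present in all 9 mutants, lowest in Q418R at 28.8 and R339Q at 53.7, against 90.4 in WT. The other 3 Trappc9 sites were weak in WT, at percentiles 7.94, 6.73 and 5.81. Site 2 (chr15:72689828-72690151) had FLAG in 7 mutants but never above percentile 12.2, without SMC3 or CTCF antibody peaks in any list. Site 1 (chr15:72639022-72639153) had FLAG in H455R alone of the mutants, and site 4 (chr15:73026863-73027003) in K365T and R377C. Peg13 itself had 1 CTCF antibody peak in treated and 1 in untreated cells within its window.

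Grb10 encodes an adaptor that dampens insulin signalling. Its site (chr11:12025717-12025950) was the weakest FLAG site of the 24 in WT, at percentile 0.767, although the CTCF antibody peak over it was at percentile 88.2 in treated and 94.99 in untreated cells. FLAG was at percentile 50.0 in K365T, 3.30 in S354F, 0.121 in R377C, 0.285 in R377H and 0.287 in Q418R, with none in the other 4 mutants. SMC3 was present in all 9 mutants at percentile 71.1 (Q418R) to 98.8 (R377C), against 82.9 in WT. The SMC3 peaks near Grb10 numbered 5 in R339Q, 13 in R342C, 10 in S354F, 18 in K365T, 9 in R377C, 35 in R377H, 1 in Q418R, 28 in R448Q and 8 in H455R, against 8 in WT. R377H and R448Q, with most peaks here, also had the longest SMC3 lists, with 120444 and 153647 peaks, and Q418R, with fewest, the shortest with 42030, against 71962 in WT.

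Plagl1 encodes a zinc-finger transcription factor that restrains growth. Its site (chr10:13087240-13087566), 3.27 kb outside the span, had FLAG at percentile 35.0 in R342C, 97.0 in S354F, 23.9 in K365T, 62.3 in R377C and 57.8 in R377H, with none in the other 4 mutants, against 80.9 in WT. SMC3 was missing in R339Q and Q418R and at percentile 89.5 to 95.5 in the other 7 mutants, against 91.5 in WT. Commd1, a regulator of copper handling that hosts the splicing-factor-like retrogene Zrsr1, had a site (chr11:22987458-22987581) 2.92 kb outside its span. FLAG there was at percentile 44.0 in S354F, 88.3 in K365T, 3.07 in R377C and 20.6 in R377H, against 9.61 in WT. K365T, with the strongest FLAG, was the 1 list with SMC3 at this site, at percentile 92.0.

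The other 6 domains had no WT FLAG site. Gnas, which encodes the alpha subunit of the stimulatory G protein, and its antisense transcript Nespas had 10 to 29 SMC3 peaks in the mutants (median 23), against 14 in WT. Their CTCF antibody peaks numbered 8 in treated cells, against 15 in untreated cells. Over the strongest untreated CTCF antibody peak of the Gnas domain (chr2:174283601-174284988, percentile 90.8), all 9 mutants had SMC3 and WT had none. The mutant SMC3 peaks there were at percentiles between 54.0 and 89.9. How many of all untreated CTCF antibody peaks show this was not computed. Mest, a gene of the hydrolase fold family, had 1 to 13 SMC3 peaks in the mutants (median 10), against 5 in WT. The WT SMC3 list, with 71962 peaks, is shorter than that of every mutant but Q418R (42030). The part of list length in these SMC3 counts, and in those of the other domains and promoters, was not tested.

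The Snrpn domain, with a splicing protein, the ubiquitin ligase Ube3a and the MAGE-family genes Ndn and Magel2, had 2 SMC3 peaks in R339Q, 1 in S354F, 3 in R377H and 5 in R448Q, and none in the other 5 mutants or in WT. The CTCF antibody gave 14 peaks there in treated cells, against 22 in untreated cells. Rasgrf1, a guanine nucleotide exchange factor of neurons, had 5 CTCF antibody peaks in treated cells, against 11 in untreated cells, but 1 SMC3 peak each in R377C, R448Q and H455R and none in the other 7 lists. Nnat, a small membrane protein of neurons, and Impact, a regulator of translation, had 1 SMC3 peak each in WT.

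Over the 24 sites, FLAG peaks of the mutants covered fewer than all in every genotype. R339Q had a FLAG peak at 13 sites (54.2%, 95% Wilson interval 35.1 to 72.1), where the share over all WT FLAG peaks was 53.1%. R342C had 17 (70.8%, 50.8 to 85.1), where the share over all WT FLAG peaks was 72.2%. S354F had 19 (79.2%, 59.5 to 90.8), where it was 86.2%. K365T had 15 (62.5%, 42.7 to 78.8), where it was 52.1%. R377C had 21 (87.5%, 69.0 to 95.7), where it was 89.6%, and R377H, a different change of the same residue, had 19 (79.2%, 59.5 to 90.8), where it was 71.8%. Q418R had 14 (58.3%, 38.8 to 75.5), where it was 59.2%. R448Q had 13 (54.2%, 35.1 to 72.1), where it was 75.2%. H455R had 5 (20.8%, 9.24 to 40.5), where it was 10.5%. Of these 5, Trappc9 sites 1 and 2 were weak in H455R, at percentiles 13.9 and 6.87, and lay under no CTCF antibody peak. Kcnq1 site 1, Meg3 site 1 and Inpp5f site 2 lay under treated CTCF antibody peaks. With a reciprocal overlap of 50% in place of 1 bp, the mean share over mutants was 40.7%, beside 63.0% with 1 bp. Intervals cover counting error over sites only, and neighbouring sites are not independent.

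The sites were then set beside the 11897 WT FLAG peaks near other genes, standardised to the WT percentile deciles of the 24 sites. The standardised shares were 56.6% for R339Q, 75.8% for R342C, 89.6% for S354F, 55.7% for K365T, 92.0% for R377C, 75.8% for R377H, 62.7% for Q418R, 77.3% for R448Q and 11.8% for H455R. The imprinted sites were below them in 6 of 9 mutants, and the mean difference was -3.42 percentage points (SD 9.67 over the 9 mutants). The sign of this mean changed without the Peg3 domain, to 1.503 points, and with only the sites under a treated CTCF antibody peak, to 0.875 points. In 8 of 9 mutants the standardised share lay inside the interval of the imprinted sites. In R448Q, singled out after its value was seen, it lay above, with a difference of -23.2 points. That difference was between -25.6 and -16.3 under 8 other settings, but 5.37 points, with the sign reversed, when each FLAG list was reduced to its 3855 strongest peaks, with 5 of 8 sites kept.

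**Figure D4:**
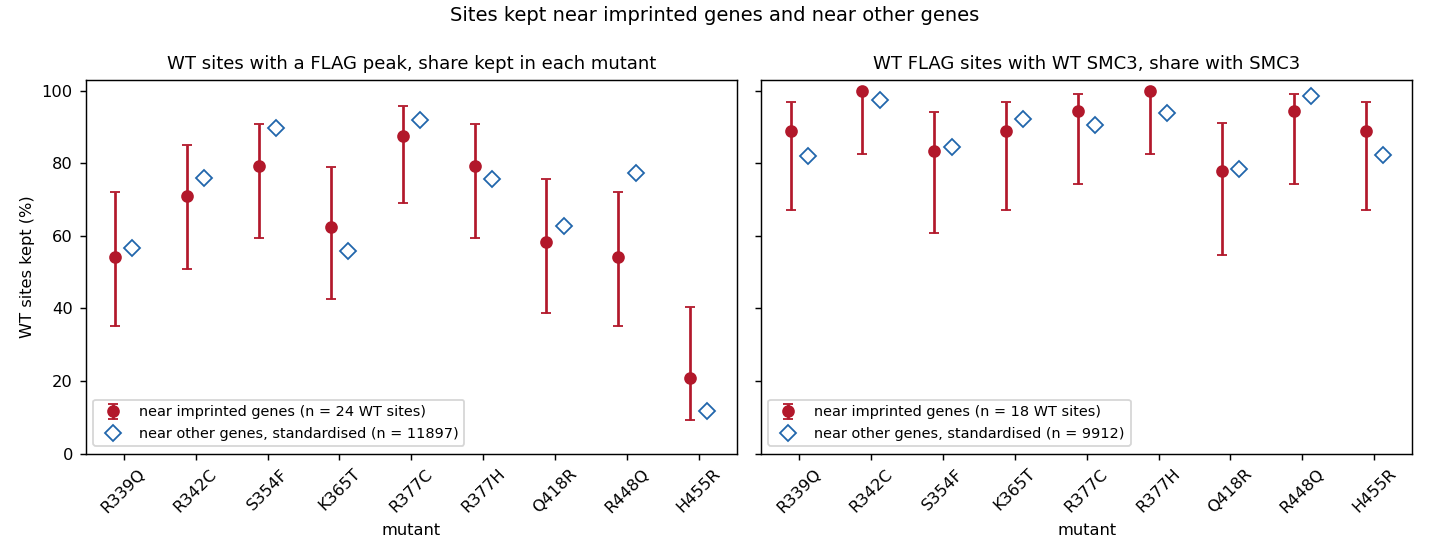
Share of WT sites kept in each mutant (per cent) near imprinted genes (red points with 95% Wilson intervals) and near other genes standardised to the same deciles of WT peak value (blue diamonds), for FLAG peaks (left, 24 sites) and for SMC3 peaks at WT FLAG sites with WT SMC3 (right, 18 sites). H455R has the lowest FLAG share (20.8%) but 88.9% for SMC3.

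By quartile of the WT list by value, the 8 sites in quartile 4, the strongest, had FLAG in 7.62 of 9 mutants on average, where it was 7.52 over all WT FLAG peaks of that quartile. In quartile 3 it was 4.00 mutants over 6 sites (6.35 over all), in quartile 2 5.75 over 4 sites (5.06 over all) and in quartile 1 4.67 over 6 sites (3.88 over all). FLAG in at least 8 mutants was seen at 8 sites, where the share over all WT FLAG peaks was 31.2%. Of these, 6 were missing in H455R only (Cdkn1c site 2, Phlda2 site 1, Usp29 site 3, Trappc9 site 3, Airn site 1 and Inpp5f site 1), where the share over all WT FLAG peaks was 24.9%.

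SMC3 was followed at the 18 sites that had it in WT. It was present at 16 in R339Q (88.9%; 78% over all WT FLAG peaks with WT SMC3), 18 in R342C (100%; 96.6%), 15 in S354F (83.3%; 81.4%), 16 in K365T (88.9%; 89.9%) and 17 in R377C (94.4%; 87.3%). It was present at 18 in R377H (100%; 91.3%), 14 in Q418R (77.8%; 74.1%), 17 in R448Q (94.4%; 97.9%) and 16 in H455R (88.9%; 77.9%). The mean over mutants was 90.7% (SD 7.35), which was 1.903 points (SD 4.32) above the standardised share near other genes. That difference was -3.31 points without the Kcnq1ot1 domain and -0.336 without Inpp5f. It was also negative in a 50 kb window (-2.72), in gene spans alone (-1.97) and with a reciprocal overlap of 50% (-5.29). The reciprocal overlap gave a mean share of 41.4%, with 27.8% in R342C and 22.2% in Q418R, lower than the 1 bp values. Peak names carry the tag b3 in the SMC3 list of Q418R, b2 in R339Q, both b1 and b2 in S354F and R377C, and b1 in the other 5 mutants and in WT; what the tag marks is not stated, and its part in these shares was not tested. SMC3 in all 9 mutants was found at 13 of the 18 sites, where the share over all WT FLAG peaks with WT SMC3 was 56.1%.

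Where a mutant had no FLAG peak, SMC3 often remained. H455R had no FLAG peak at 15 of the 18 sites and SMC3 at 13 of these 15, where 76.2% of all such WT FLAG peaks had SMC3 in H455R. In R339Q it was 4 of 6 (55.8% over all), in R342C 3 of 3 (87.6%), in K365T 4 of 6 (77.9%), in R377H 2 of 2 (75.4%) and in R448Q 5 of 6 (91.7%). S354F had SMC3 at 0 of 2 such sites (28.4% over all) and Q418R at 2 of 6 (46.7%), and R377C had no site of this kind (63.6% over all). Of the 18 sites, those with FLAG kept in a mutant also had SMC3 in it, except 1 in S354F (Meg3 site 1) and 1 in R377C (Zim1 site 2). Over all WT FLAG peaks with WT SMC3 and FLAG kept, 84.4% (S354F) to 99.3% (R448Q) had SMC3 in the mutant.

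Over all 94 WT SMC3 peaks near members, whether at a WT FLAG peak or not, the share kept was lower in each mutant than over the 18 sites. R339Q kept 51 (54.3%; 50.5% over all WT SMC3 peaks), R342C 71 (75.5%; 73.3%), S354F 50 (53.2%; 53.7%), K365T 55 (58.5%; 57.8%) and R377C 55 (58.5%; 60.7%). R377H kept 61 (64.9%; 69%), Q418R 30 (31.9%; 29.3%), R448Q 66 (70.2%; 77.8%) and H455R 56 (59.6%; 60.2%). R448Q was the farthest from its share over all WT SMC3 peaks. The shortest SMC3 list, that of Q418R, had the lowest share; depth is unknown from peak lists, and the part of list length in these shares was not tested.

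For the CTCF antibody, treated WT cells had 141 peaks near members, against 229 in untreated WT cells. Of the 229, 130 overlapped a treated peak (56.8%, 50.3 to 63.0), where the share over all untreated peaks was 56.9% and the standardised share near other genes 58.9%. Of the 141 treated peaks, 9 overlapped no untreated one, where the share over all treated peaks was 8.27%. By domain, the share of untreated peaks kept was highest in Plagl1 (71.4%), Peg3 (70.0%) and Dlk1-Meg3 (69.6%). It was lowest in Impact (25.0%, 1 of 4), Rasgrf1 (45.5%), Gnas (46.7%) and Kcnq1ot1 (47.2%). The treated cells express the FLAG transgene, so a treated CTCF antibody peak can come from either protein.

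Outside the WT FLAG list, mutants had 70 merged FLAG sites near members. Of these, 49 were in 1 mutant, 14 in 2 and 7 in at least 3. Over all 53544 such sites, merged in the same way, 74.5% were in 1 mutant, 12.9% in 2 and 12.6% in at least 3. On a CTCF antibody peak, with or without treatment, lay 49 of the 70, where the share over all such sites was 59.4%. Q418R had 25 of them, 22 in Q418R alone, and R377C had 19 and S354F 18. By contrast R339Q had 11, K365T 8, R342C 7, R377H 5, R448Q 4 and H455R 3. Over the whole lists, 70.2% of Q418R FLAG peaks, 55.9% of R377C, 45.8% of S354F, 57.4% of R339Q, 39% of K365T, 33% of R342C, 33.6% of R377H, 40.6% of R448Q and 58.1% of H455R peaks were outside the WT FLAG list.

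The 7 sites that at least 3 mutants shared lay in 6 domains, and S354F had 5 of them and R377C 6. The strongest was in Trappc9 (chr15:73044247-73045170), at percentile 71.3 in S354F, 68.8 in R377C, 73.7 in R448Q and 95.1 in H455R, with CTCF antibody peaks in treated and untreated cells. In H455R it ranked above every FLAG peak at the 24 WT sites. A site inside Mest (chr6:30736971-30737227) was shared by S354F, R377C, R377H and Q418R at percentiles between 6.73 and 39.9, with SMC3 in 7 mutants and in WT. A site 0.824 kb outside Magel2 (chr7:62382465-62382739) was shared by S354F, R377C and R448Q, and a site in Commd1 (chr11:22950057-22950492) by the same 3 mutants.

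The remaining shared sites were in Kcnq1, Usp29 and Trappc9. The Kcnq1 site (chr7:143138847-143139254) had FLAG in R339Q, R342C and R377C at percentiles of 43.3, 29.7 and 29.3, with SMC3 in 7 mutants and WT. The Usp29 site (chr7:6912141-6912401) had FLAG in R342C, S354F and R377C, SMC3 in WT and in no mutant, and no CTCF antibody peak. The other Trappc9 site (chr15:72637660-72637875) had FLAG in K365T, Q418R and H455R at percentiles between 6.50 and 15.5, and neither SMC3 nor CTCF antibody peaks.

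A list of 35 other imprinted genes, outside the 32, had 27 WT FLAG sites near 17 genes. FLAG was kept at 16 of them in R339Q, 19 in R342C, 24 in S354F, 11 in K365T, 22 in R377C, 17 in R377H, 17 in Q418R, 17 in R448Q and 5 in H455R. The mean over mutants was 60.9% (SD 21.0), beside 63.0% (SD 19.8) at the 24 sites of the members. SMC3 was kept at a mean of 86.9% (SD 7.34) of the 22 sites with WT SMC3, beside 90.7% at the members. At the edge of the 10 kb window, Inpp5f site 2 at 9.31 kb (WT percentile 19.6) was the farthest site included. The nearest WT FLAG peak left out was 11.8 kb from Kcnq1 (WT percentile 43.4).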

How the data were processed

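ChIPmentation libraries from 48 samples in 24 groups of 2 replicates are given by the labels, and 22 groups have a peak list; FLAG in untreated WT cells and IgG were not analysed here. Reads had been processed against mm10 with tools that include deepTools, MACS2, Bowtie2 and Trim Galore, per the submitters' processing notes; versions were not given in the sources used here. Both replicates are pooled in a deposited list, by its title. A line has a chromosome, start, end, peak name and score. The measure of the peak caller behind this deposited score is not stated, and it was used only as a percentile within its list. Between 1.30% and 5.26% of the peak numbers in the names are not in the lists used here, so a peak may be missing for that reason. Depth per library is unknown. Where a FLAG list repeats an interval for several summits, the repeats were merged and the highest score taken.

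The 32 members, the 35 other imprinted genes and the comparisons were chosen with earlier results of these data known. Gene spans, without strand, exons or introns, are those of RefSeq on GRCm38.p6 (mm10). Nespas is listed there as Gnasas1. Windows reach 10 kb beyond a span. An overlap of 1 bp counted as shared. Shares have 95% Wilson intervals, which cover counting error only. The comparison with other genes weights 10 deciles of WT value (of the untreated list for the CTCF antibody) as at the members. No test was run. Sites named are every WT FLAG peak near a member, every FLAG site outside the WT list shared by at least 3 mutants, and the strongest WT SMC3 and untreated CTCF antibody peak of each domain. The text also names the domains and promoters with the values given, chosen after their values were seen. Alternatives were a reciprocal overlap of 50%, a match within 500 bp, the upper 50% of each list, equal numbers of top peaks (3855 FLAG, 42030 SMC3, 116973 CTCF antibody), a 50 kb window, gene spans only, WT sites restricted to those under a treated CTCF antibody peak, 20 bins, all WT FLAG peaks away from members and leaving out each domain. Python 3.11.15, numpy 2.4.6, pandas 2.3.3 and matplotlib 3.10.9 were used. The overlap function was tested on simulated data and checked against bedtools 2.31.1.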

Additional observations from a re-analysis of the deposited data

How the results depend on the processing

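No paired analysis was possible because each list pools both replicates, and for the same reason no replicate could be left out. Of the values recomputed under other settings, 559 kept their direction and moved by less than their error, 46 moved by more and 7 changed sign. Most of these values are shares or counts, which cannot change sign, so the tally is no measure of stability. Differences of single mutants from other genes are not in it, and several changed sign in either direction. For FLAG, K365T went from 6.76 to -22.8 points in the upper 50% of each list. R342C went from -4.96 to 13.8 points with equal numbers of top peaks. With a reciprocal overlap of 50%, the FLAG share was 16.7% in R339Q, 50.0% in S354F, 37.5% in K365T, 58.3% in R377C, 58.3% in R377H and 25.0% in Q418R (mean over 9 mutants 40.7%). The SMC3 share was then 38.9% in R339Q, 27.8% in R342C, 27.8% in S354F, 50.0% in K365T, 61.1% in R377C, 61.1% in R377H, 22.2% in Q418R, 33.3% in R448Q and 50.0% in H455R (mean 41.4%, difference from other genes -5.29 points). In the upper 50% of each list the FLAG share was 28.6% in K365T, 57.1% in R377H, 35.7% in Q418R and 7.14% in H455R, the SMC3 share 100% in R448Q, and there were 14 sites in 6 domains. With equal numbers of top peaks the FLAG share was 50.0% in S354F, 37.5% in K365T, 50.0% in R377C and 25.0% in Q418R, the SMC3 share 100% in K365T, R377C, R448Q and H455R, and there were 8 sites in 6 domains. With only the sites under a treated CTCF antibody peak, the FLAG share was 94.7% in S354F, 100% in R377C and 94.7% in R377H, the mean FLAG difference 0.875 points, and the SMC3 share 100% in R448Q. A 50 kb window gave 40 sites and a mean SMC3 difference of -2.72 points, and gene spans alone -1.97 points. The share of untreated CTCF antibody peaks kept was 35.8% with the reciprocal overlap, 73.8% with a match within 500 bp, 65.3% in the upper 50% and 76.8% with equal numbers. Leaving out each domain in turn gave a mean FLAG difference between -7.28 and 1.503 points (positive without Peg3) and a mean SMC3 difference between -3.31 and 5.56 points. In these runs the SMC3 share was between 83.3% and 100% in K365T, 91.7% and 100% in R377C and 91.7% and 100% in R448Q, the mean FLAG share between 59.9% and 68.2% and the mean SMC3 share between 86.1% and 93.7%. The cause of these changes was not tested; settings that leave fewer sites or ask for more overlap give fewer matches by construction.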

Other observations

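In 3 domains with a WT FLAG site (Inpp5f, Peg10 and Zrsr1), the strongest WT SMC3 peak had no WT FLAG peak on it. In Inpp5f the strongest WT SMC3 peak (chr7:128687593-128688568, percentile 92.6 in its list) had SMC3 in all 9 mutants and no FLAG in any list. It lay under no treated CTCF antibody peak and under a weak untreated one, at percentile 31.9. In Sgce, the strongest WT SMC3 peak (chr6:4733382-4733577, percentile 82.0) had SMC3 in 8 mutants, all but Q418R, without FLAG or CTCF antibody peaks in any list. In Commd1, the strongest WT SMC3 peak (chr11:22956974-22957173, percentile 66.8) had SMC3 in 4 mutants and FLAG in 2. The strongest untreated CTCF antibody peak there (chr11:22949795-22950688, percentile 93.4) had FLAG in 3 mutants and SMC3 in 5, and neither in WT.

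Among the domains without a WT FLAG site, the strongest WT SMC3 peak at Gnas (chr2:174312260-174312499, percentile 82.0) had SMC3 in 3 mutants and FLAG in 2. The strongest WT SMC3 peak at Mest (chr6:30732863-30733229, percentile 61.0) had SMC3 in 8 mutants, all but Q418R, and no FLAG, and overlapped the strongest untreated CTCF antibody peak of Mest (percentile 79.8). At Nnat the strongest WT SMC3 peak (chr2:157561310-157561555, percentile 53.3) had SMC3 in 8 mutants, all but K365T. It lay apart from the strongest untreated CTCF antibody peak (chr2:157558498-157558956, percentile 81.4), which had neither FLAG nor SMC3 in any list. At Impact the strongest WT SMC3 peak (percentile 55.8) had SMC3 in 5 mutants, and the strongest untreated CTCF antibody peak (percentile 76.2) had none in any list. The strongest untreated CTCF antibody peak at Magel2 (chr7:62382088-62383168, percentile 88.4) had FLAG in 3 mutants and SMC3 in 1. At Rasgrf1 it was at percentile 87.0 (chr9:89968778-89970105), with FLAG in 2 mutants and SMC3 in 1. In the remaining domains the strongest WT SMC3 peak and the strongest untreated CTCF antibody peak lay on WT FLAG sites.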
